A study of Mus musculus with 6 samples.

Results

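The Nduf genes, named for NADH:ubiquinone oxidoreductase, encode the nuclear subunits and part of the assembly factors of respiratory complex I. They were taken as every protein-coding gene of the deposited count table whose symbol starts with Nduf, which gave 46 of 53800 genes and of 22057 protein-coding genes. The rule used names and biotype, not expression, but the family was chosen with earlier results of these data known. RNA was sequenced from NCTC 1469 cells, a wild-type line derived from mouse liver, in 2 groups of 3 libraries. Simulated microgravity (SMG) meant 6 days on a random positioning machine, which turns a culture so that the direction of gravity averages out, and normal gravity (NG) meant 6 days without it. The title of the series names melatonin, and none of the 6 libraries carries a label of melatonin treatment. The table's columns carry the letters R and C, read here as random positioning machine and control. The labels do not state that reading, and every direction below rests on it.

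Complex I is the entry point of NADH electrons into the respiratory chain of the inner mitochondrial membrane. Its matrix arm holds the N module, which oxidises NADH at a flavin, and the Q module, which passes the electrons through iron-sulfur clusters to ubiquinone. Its membrane arm pumps protons and is built around subunits encoded in mitochondrial DNA, so that the enzyme needs gene products of both genomes. Assembly factors help to build the modules and are not part of the finished enzyme. In liver, complex I supplies much of the proton gradient for ATP synthesis and is one source of superoxide.

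By role, the genes comprised 10 subunits of the N module, 6 of the Q module, 9 of the proximal membrane arm and 10 of the distal membrane arm. The others were the acyl carrier protein Ndufab1, the pair Ndufa4 and Ndufa4l2, and the 8 assembly factors Ndufaf1 to Ndufaf8. Ndufa4 keeps its complex I name, although its protein is now counted with cytochrome c oxidase. Of the 46 genes, 45 had enough counts to be tested. Ndufa4l2, a relative of Ndufa4 known as a hypoxia target, did not: it had 5, 0 and 4 counts in SMG 1 to 3, and 11, 0 and 0 counts in NG 1 to 3.

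Promoter windows of 300 bases, from 250 before to 50 after the start of transcription, were available from RefSeq (GRCm38.p6) for 40 of the 46 genes, in 42 windows. A pair is shown because both genes were called higher under SMG once 1 NG library was left out, as described below. Ndufb9 and Ndufs1 were called in that fit as well, and no window was available for them. The first is the window of Ndufaf3 (chr9:108567387-108567686, minus strand) and the second that of Ndufa1 (chrX:37191189-37191488, minus strand). Both are given 5′ to 3′ in the direction of transcription, and capitals mark the letters GGGCGG or their complement CCGCCC, the core of an SP1 motif.
Ndufaf3: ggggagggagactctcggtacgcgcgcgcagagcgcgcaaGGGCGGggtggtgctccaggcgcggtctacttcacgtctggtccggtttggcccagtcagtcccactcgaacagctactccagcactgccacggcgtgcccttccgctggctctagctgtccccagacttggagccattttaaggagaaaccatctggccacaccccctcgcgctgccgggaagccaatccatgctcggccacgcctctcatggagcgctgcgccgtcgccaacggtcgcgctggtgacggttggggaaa
Ndufa1: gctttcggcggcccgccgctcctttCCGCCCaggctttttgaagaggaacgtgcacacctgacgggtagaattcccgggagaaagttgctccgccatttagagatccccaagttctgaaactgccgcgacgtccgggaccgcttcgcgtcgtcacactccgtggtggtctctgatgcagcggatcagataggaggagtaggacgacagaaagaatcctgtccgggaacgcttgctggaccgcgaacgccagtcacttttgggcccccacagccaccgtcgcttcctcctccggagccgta
Neither window held the other 3 motifs searched on both strands. The starts used are those of RefSeq. The Ndufa1 window lies wholly upstream of the span listed for that gene, which ends at base 37191163. Over the windows of these genes, GGGCGG stood in 52.4%, against 35.7% of all 32851 RefSeq windows. GCGCANGCG, the core of the NRF1 motif, stood in 26.2%, against 6.25% of all windows. AANATGGCG (YY1) stood in 19%, against 2.38%, and CCGGAAG (ETS factors such as GABP) in 14.3%, against 8.86%. At least 1 of the 4 motifs was in 83.3%, against 41.3% of all windows. Median GC content was 59.3% in the windows of these genes and 52.7% in all windows, which include those of non-coding genes. These are matches of letters, given as a description.

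Library totals ran from 30474792 to 34318208 counts under SMG and from 31406875 to 32797684 under NG. The labelled cell type, hepatocyte, went against the markers: 8 of 10 hepatocyte genes, albumin (Alb) and Hnf4a among them, had no count in any library. Levels are in CPM, a gene's counts scaled to the size of its library, and the summed level of the 10 was 0.0901 to 0.146 CPM under SMG and 0 to 0.183 CPM under NG. The summed level of 10 macrophage symbols was 9578.9 to 10762.9 CPM under SMG and 6162.6 to 9731.3 CPM under NG. The gap to NG 2 and NG 3 lay mostly in Lyz2, which had 3900.8, 3516.5 and 4557.8 CPM in SMG 1 to 3, against 3927.8, 969.1 and 1022 CPM in NG 1 to 3. Csf1r was at 2458.7 to 2526.2 CPM under SMG and 2118.2 to 2280.5 CPM under NG, and Adgre1 at 779.2 to 836.5 CPM under SMG and 815.3 to 964.5 CPM under NG. Not all macrophage symbols were high: Mrc1, C1qa and C1qb were at 1.2 CPM or below in every library. Summed proliferation markers (8 genes) were at 2057.9, 2107.3 and 1874.7 CPM in SMG 1 to 3, against 1789.3, 2916.9 and 3088.3 CPM in NG 1 to 3. Without NG 1, 7 of the 8 fell (edgeR adjusted p under 0.05), against 15.1% of all tested genes. With all libraries 0 of the 8 passed that test. Summed endothelial markers (6 genes, 4 of them tested) were at 45.5 to 58.3 CPM under SMG and 19.4 to 20 CPM under NG. With all libraries, 2 of these 4 had log2 fold changes, SMG over NG, below 0 and 2 above. They ran from -1.04 to 2.28, so the endothelial sum does not describe its list. Cholangiocyte markers (5 genes, 1 of them tested) summed to 1439.7 to 1520.6 CPM under SMG and 2367.2 to 3417.2 CPM under NG. The other cholangiocyte genes had too few counts to be tested, and Sox9 had none, so that sum does not describe the list. Fibroblast and stellate markers (8 genes) summed to 12.5 to 16.3 CPM under SMG and 10.8 to 12.5 CPM under NG. The part of these differences in the results below was not tested. In bulk RNA, fewer cells of a type and less RNA per cell cannot be told apart.

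Levels of the Nduf transcripts are given as CPM per kilobase of the principal mRNA, averaged over the 6 libraries. The highest level was that of Ndufb9, a distal-arm subunit of the LYR family, at 204.4 (165.5 to 311.2 over libraries). Ndufa4 followed at 182.0 and Ndufb8 at 174.9, and the ranges over libraries of these 3 genes overlapped, so that their order is within the spread. The 37 genes other than assembly factors and Ndufa4l2 had a median of 92.8, and the 8 assembly factors a median of 10.2. No assembly factor was above 27.1, the level of Ndufaf2, and only Ndufab1 (25.1) and Ndufb2 (12.1) among the 37 lay below that. Ndufaf6 was lowest of the tested genes at 5.03, and Ndufa4l2 stood at 0.11. The 7 nuclear core subunits, which carry the flavin and the clusters, did not form a tier of their own: Ndufv2 was at 135.8 and Ndufs3 at 41.9. A few ranks depend on the length used, since Ndufb7 was at 116.5 per kilobase of principal mRNA and at 16.4 per kilobase of the gene length listed in the table.

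**Figure D1:**
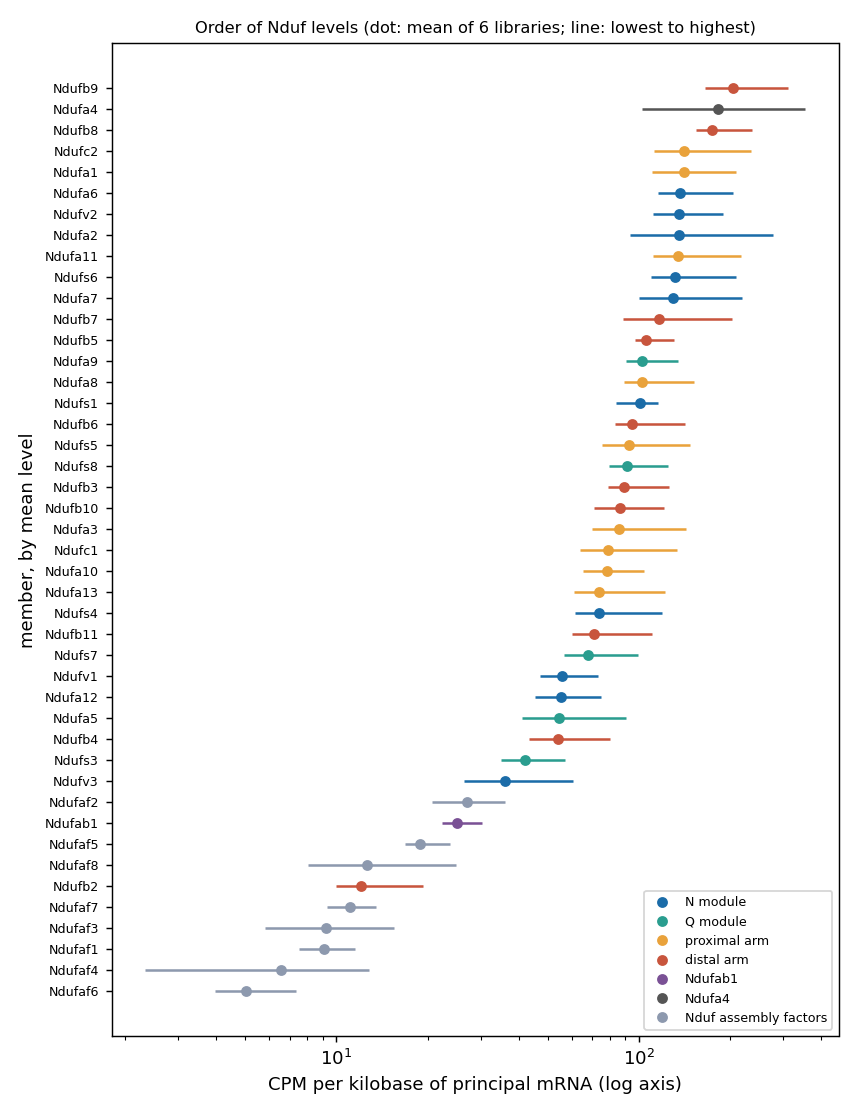
Level of 44 tested Nduf transcripts in CPM per kilobase of principal mRNA on a log axis, ordered by level. Dots are means of the 6 libraries, lines run from the lowest to the highest library, and colours mark the role. The 8 assembly factors sit at 27.1 or below.

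One NG library differed from all others in these genes. Replicate 1 (NG 1) was the highest of the 6 libraries for 43 of the 45 tested Nduf genes, against 35.4% of all tested genes. The exceptions were Ndufs1 and Ndufaf4. Over the members, NG 1 exceeded the mean of NG 2 and NG 3 by a median of 1.7-fold, from 0.585-fold for Ndufaf4 to 2.83-fold for Ndufa2, and 30 of 45 were more than 1.5-fold higher. NG 2 and NG 3 lay close together, with a median ratio of the higher to the lower of 1.05 and at most 1.38.

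The deviation of NG 1 moved with mRNA length in all genes. Principal mRNAs of the Nduf genes had a median length of 921 bases (419 to 3632), with 26 of 46 under 1000 bases, against a median of 2521 bases over tested genes. A principal mRNA was annotated for all 46 Nduf genes and for 80.3% of tested genes. For tested genes without one, mRNA length here and below stands for the gene length listed in the table. Among tested genes with mRNAs of up to 750 bases, NG 1 stood a median of 0.44 above NG 2 and NG 3 on the log2(CPM + 1) scale, and in those over 5000 bases -0.72. Nduf genes in the shortest class had a median of 0.90. Not every short transcript followed the trend. Of the mitochondrially encoded subunits, mt-Nd4l (297 bases) was at 0.207 times the mean of NG 2 and NG 3 in NG 1. By contrast, mt-Nd6 (519 bases) was at 1.35 times that mean. Spearman's rho between mRNA length and the deviation of NG 1 was -0.58 over the 45 Nduf genes and -0.54 over all tested genes. These points share 3 libraries and their depth, so the coefficients describe those libraries. Ndufs1 and Ndufaf4, the exceptions, have the longest principal mRNAs of the family, at 2625 and 3632 bases.

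**Figure D2:**
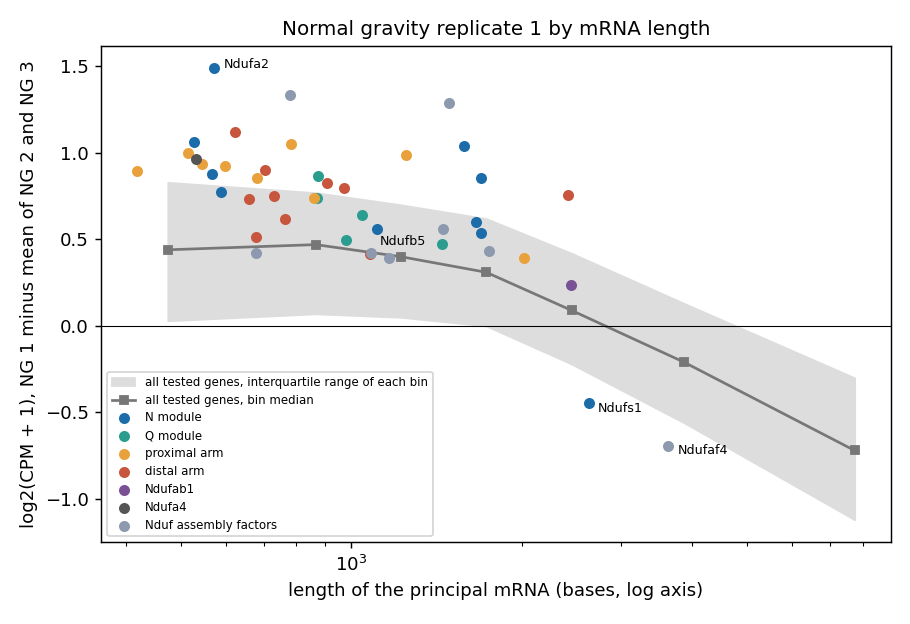
Deviation of NG 1 from the mean of NG 2 and NG 3, in log2(CPM + 1), against the length of the principal mRNA in bases on a log axis. Coloured points are 44 Nduf genes by role, the grey line the median of all tested genes in length classes and the band their interquartile range. Tested genes without a principal mRNA entered the classes with the listed gene length. All Nduf points but those of Ndufs1 and Ndufaf4 lie above 0.

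Nduf transcripts together took 0.314%, 0.329% and 0.32% of all counts in SMG 1 to 3, against 0.501%, 0.335% and 0.331% in NG 1 to 3. The SMG mean was 0.321% ± 0.00785 and the NG mean 0.389% ± 0.0971 (SD, n = 3 each). SMG minus NG came to -0.0677 percentage points, less than the SD of the NG group, and to -0.0117 without NG 1. The mitochondrially encoded subunits, the partners of these genes in the membrane arm, ran the other way in NG 1 when summed. They took 1.64%, 1.53% and 1.61% of counts in SMG 1 to 3, against 0.974%, 1.73% and 1.78% in NG 1 to 3. The exception among them was mt-Nd6, which was highest in NG 1, at 124.9 CPM against 78.7 to 108.3 CPM in the other libraries. Counts on the mt-Nd genes were 5.23, 4.65 and 5.02 times those on the Nduf genes in SMG 1 to 3, against 1.94, 5.17 and 5.37 times in NG 1 to 3.

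**Figure D3:**
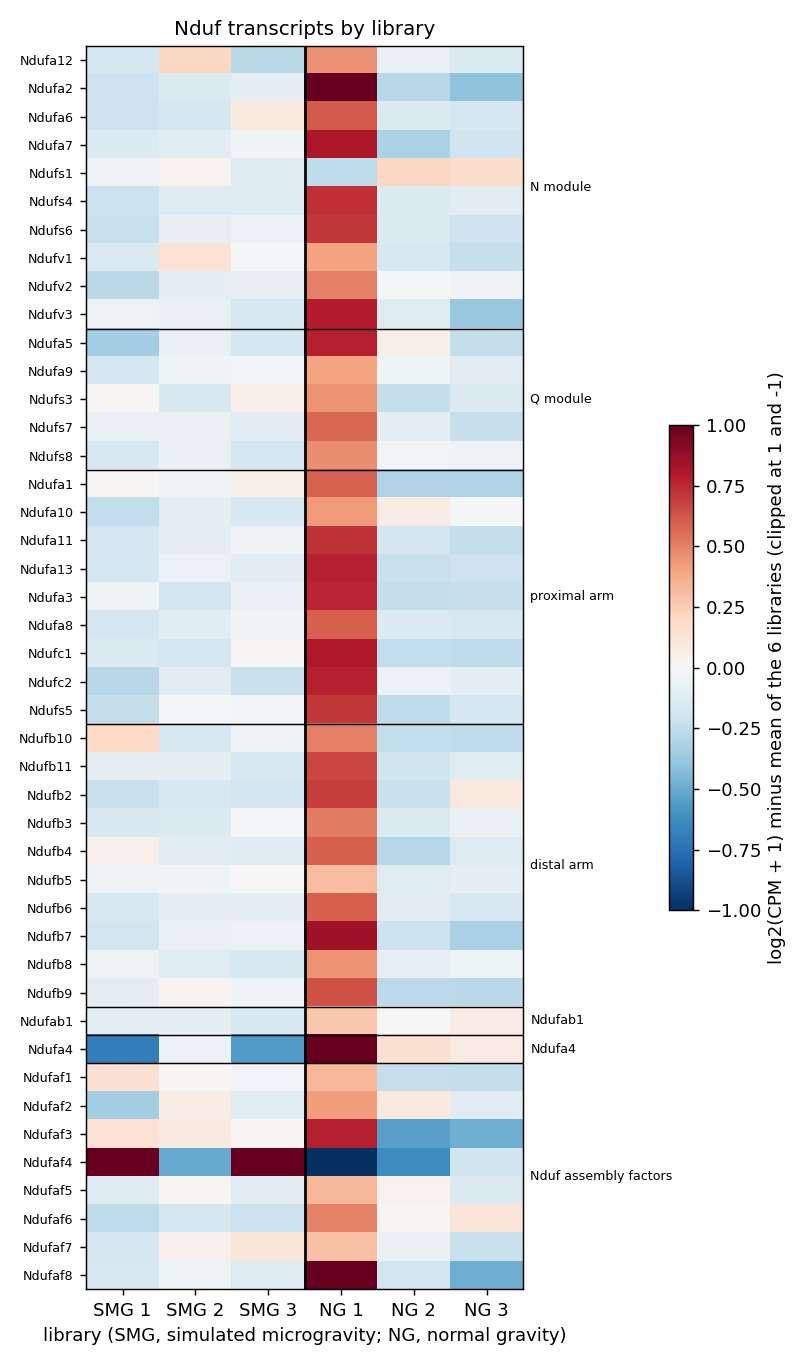
Tested Nduf genes (44 rows, by role) in the 6 libraries (columns, SMG left of NG), as log2(CPM + 1) minus the gene's mean over libraries, with colours clipped at 1 and -1. The column of NG 1 is the highest for 42 of 44 genes, and Ndufaf4 is high in SMG 1 and SMG 3.

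Setting SMG against NG asks whether transcripts for complex I change when gravity is averaged out. With all 6 libraries no Nduf gene passed edgeR's quasi-likelihood test at a Benjamini-Hochberg adjusted p under 0.05 (0 of 45), while 1.52% of all tested genes did. At an unadjusted p under 0.05, 1 of the 45 was higher (Ndufaf4), against 8.55% of all tested genes, and 2 were lower (Ndufa4 and Ndufaf6), against 7.48%. DESeq2 called 1 Nduf gene, Ndufaf4, while it called 8.48% of all genes, and limma's voom called 0 Nduf genes. SMG values lay below all NG values for 7 of 45 Nduf genes (15.6%), and this was so for 12.9% of all tested genes. SMG values lay above all NG values for 0 of 45, and for 14.4% of all tested genes.

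The median log2 fold change, SMG over NG, was -0.25 over the 45 Nduf genes and -0.02 over all tested genes, and 42 of the 45 estimates were below 0. Without NG 1 the median was 0.08, with 16 estimates below 0 and 29 above, and over all tested genes 0.01. When the trend with mRNA length was removed from all libraries the median was -0.03, and with both changes 0.04. The downward median therefore depended on NG 1. By role, the median with all libraries and without NG 1 was -0.29 and 0.07 in the N module, -0.20 and -0.01 in the Q module, -0.28 and 0.12 in the proximal arm. It was -0.24 and 0.06 in the distal arm and -0.09 and 0.20 in the assembly factors.

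Without NG 1, 3 Nduf genes rose under SMG, where 15.7% of all tested genes did, and 1 fell, where 15.1% of all tested genes did. These 4 are 8.89% of the 45, against the 30.8% of all tested genes that passed in either direction. With the mRNA length trend removed, all libraries gave 0 of 45 Nduf genes (edgeR), against 5.19% of all genes. With an unadjusted p under 0.05 in that fit, 2 of the 45 were higher, against 10.9% of all genes, and 6 were lower, against 10.3%. With the trend removed and NG 1 left out, 6 of 45 passed (13.3%), against 30.6% of all genes. Whether the Nduf genes differ from all genes in these shares was not tested, and with so few calls the fit of all libraries says nothing on it.

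**Figure D4:**
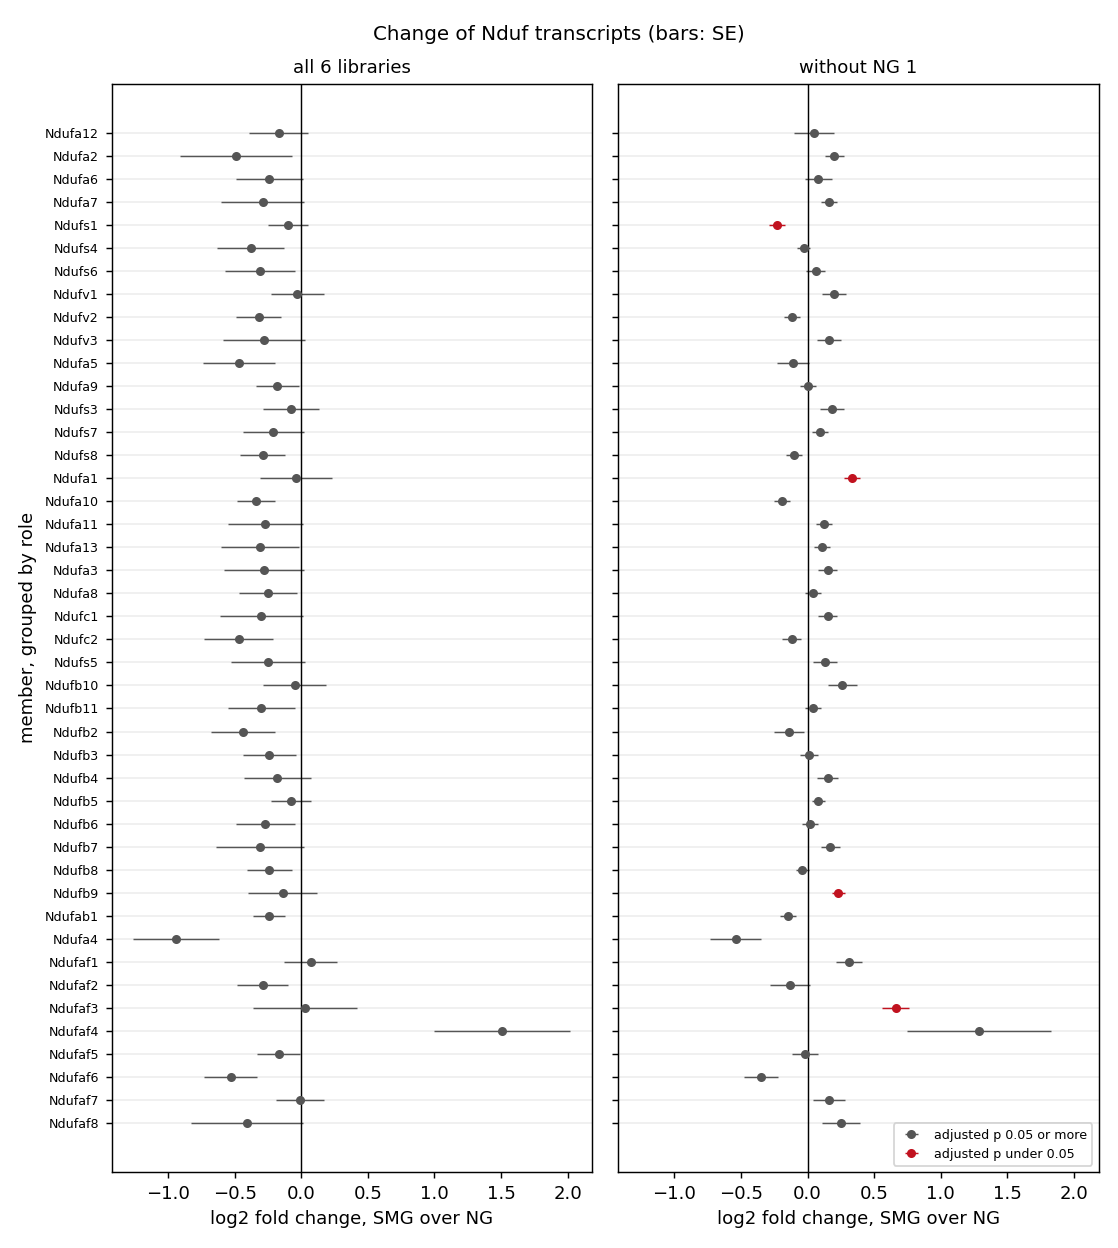
Log2 fold change, SMG over NG, of 44 tested Nduf genes with SE, from all 6 libraries (left) and without NG 1 (right), with red for an adjusted p under 0.05. On the left 41 of 44 estimates are below 0 and none is red, and on the right 29 are above 0 and 4 are red.

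In the N module, Ndufs1, the largest iron-sulfur subunit of complex I (ENSMUSG00000025968, chr1:63143596-63176833 of GRCm38), had 256.5, 269.6 and 240.8 CPM in SMG 1 to 3, against 219.8, 303.8 and 296.6 CPM in NG 1 to 3. The SMG values lay between NG 1 and the other NG libraries, so the groups overlapped. Its log2 fold change was -0.10 (SE 0.15, edgeR adjusted p 0.819). Without NG 1 it fell by 0.23 (SE 0.06, edgeR adjusted p 0.0267), and it also passed with the mRNA length trend removed in that fit (-0.27, adjusted p 0.0171). Over the 15 alternatives its estimate ran from -0.27 to -0.02 and its adjusted p from 0.0171 to 0.976. Ndufs1 shares 9 bases with Eef1b2 on the other strand, and whether counting used strand is not given in the sources used here.

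Ndufv2, an iron-sulfur subunit beside the flavin, had the lowest p of the N module with all libraries. It had 188.6, 211.6 and 213.9 CPM in SMG 1 to 3, against 323.1, 223.4 and 221.8 CPM in NG 1 to 3. All SMG libraries lay below all NG libraries, by little against NG 2 and NG 3. With all libraries its log2 fold change was -0.32 (SE 0.17, edgeR adjusted p 0.444), and it was -0.12 without NG 1 (adjusted p 0.211). It passed in 1 of 15 alternatives, without NG 1 and with the mRNA length trend removed (-0.18, adjusted p 0.0486), and its adjusted p ran up to 0.806. Ndufv1, which binds NADH and the flavin, had a log2 fold change of -0.03 (adjusted p 0.965), and 0.20 without NG 1 (adjusted p 0.152).

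In the Q module the lowest p was that of Ndufs8, which carries iron-sulfur clusters close to the quinone site. It had 78.9, 84.3 and 77.8 CPM in SMG 1 to 3, against 122.4, 86.4 and 86.2 CPM in NG 1 to 3. The groups did not overlap, and the log2 fold change was -0.29 (edgeR adjusted p 0.475) with all libraries and -0.10 without NG 1 (adjusted p 0.237).

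In the proximal membrane arm, Ndufa1, a small single-span subunit encoded on the X chromosome (ENSMUSG00000016427, chrX:37187588-37191163), had 58.4, 56.2 and 60.3 CPM in SMG 1 to 3, against 87.4, 46.6 and 46.5 CPM in NG 1 to 3. SMG lay above NG 2 and NG 3 and below NG 1, so the groups overlapped. The log2 fold change was -0.04 (SE 0.27, edgeR adjusted p 0.963) with all libraries. Without NG 1 it rose by 0.33 (SE 0.06, adjusted p 0.0086), 1.25 times the mean of NG 2 and NG 3. Over the 15 alternatives the estimate ran from -0.20 to 0.33 and the adjusted p from 0.0086 to 0.994. Its mRNA is the shortest of the family, at 419 bases.

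Ndufa10, an accessory subunit related to nucleoside kinases, had the lowest p of the proximal arm. It had 131.5, 147.2 and 140.6 CPM in SMG 1 to 3, against 210.4, 165.0 and 155.0 CPM in NG 1 to 3. SMG lay below NG in every library, with and without NG 1. The log2 fold change was -0.34 (SE 0.14, edgeR adjusted p 0.323) with all libraries and -0.19 (SE 0.06, adjusted p 0.064) without NG 1. It passed in 1 of 15 alternatives, without NG 1 and with the mRNA length trend removed (-0.24, adjusted p 0.0276), and its adjusted p ran up to 0.724. Of the other 7 proximal-arm genes, 6 had estimates above 0 without NG 1, the exception being Ndufc2 at -0.12, and none passed the test.

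In the distal membrane arm, Ndufb9 (ENSMUSG00000022354, chr15:58933756-58939488) had 131.0, 143.1 and 136.5 CPM in SMG 1 to 3, against 219.1, 117.0 and 116.5 CPM in NG 1 to 3. As for Ndufa1, SMG lay above NG 2 and NG 3 and below NG 1. The log2 fold change was -0.14 (SE 0.26, edgeR adjusted p 0.854) with all libraries, and without NG 1 it rose by 0.23 (SE 0.05, adjusted p 0.0218). Across 15 alternatives the estimate ran from -0.30 to 0.23 and the adjusted p from 0.0197 to 0.965. A second protein-coding row on the same strand, AC158777.2, overlaps 3604 bases of Ndufb9 and held 0, 0 and 16 counts in SMG 1 to 3, against 22, 0 and 6 in NG 1 to 3.

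Ndufb2, a small distal-arm subunit, had the lowest p of that arm, with 24.2, 25.3 and 24.9 CPM in SMG 1 to 3, against 46.6, 24.2 and 30.4 CPM in NG 1 to 3. The groups overlapped at NG 2, and the log2 fold change was -0.44 (edgeR adjusted p 0.448) with all libraries and -0.14 without NG 1 (adjusted p 0.396). Ndufab1, the acyl carrier protein, had 57.0, 57.3 and 54.7 CPM in SMG 1 to 3, against 73.9, 60.8 and 64.1 CPM in NG 1 to 3. It serves in mitochondrial fatty acid synthesis and iron-sulfur cluster assembly as well as in complex I. Its SMG libraries lay below all NG libraries, and the log2 fold change was -0.24 (SE 0.12, edgeR adjusted p 0.41), or -0.15 without NG 1 (adjusted p 0.103). Ndufs8, Ndufb2 and Ndufab1 passed in none of 15 alternatives, where their adjusted p ran from 0.0544 for Ndufab1 to 0.796 for Ndufs8.

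Ndufa4 (ENSMUSG00000029632, chr6:11900292-11907497) had the lowest estimate of the family. It had 54.5, 84.8 and 59.4 CPM in SMG 1 to 3, against 188.7, 98.7 and 93.6 CPM in NG 1 to 3. All SMG libraries lay below all NG libraries, SMG 2 nearest to them. The mean was 66.2 ± 16.3 CPM under SMG and 127.0 ± 53.5 CPM under NG (SD, n = 3 each). Its estimate was -0.94 on the log2 scale (SE 0.32, edgeR adjusted p 0.229) with all libraries and -0.54 (SE 0.19, adjusted p 0.0752) without NG 1. It passed in none of 15 alternatives, with estimates from -1.15 to -0.54 and adjusted p-values from 0.0631 to 0.603.

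Among the assembly factors, Ndufaf3 and Ndufaf4 are known from human cells as partners that act early, on the Q module. Ndufaf3 (ENSMUSG00000070283, chr9:108565537-108567434) had 14.5, 13.9 and 13.2 CPM in SMG 1 to 3, against 23, 8.61 and 9.01 CPM in NG 1 to 3. SMG lay between NG 1 and the other NG libraries. The log2 fold change was 0.03 (SE 0.39, edgeR adjusted p 0.983) with all libraries, and without NG 1 Ndufaf3 rose by 0.66 (SE 0.10, adjusted p 0.005), 1.57 times the mean of NG 2 and NG 3. Over the 15 alternatives the estimate ran from -0.21 to 0.66 and the adjusted p from 0.005 to 1.0. Ndufaf3 shares 48 bases with Impdh2 on the other strand.

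Ndufaf4 (ENSMUSG00000028261, chr4:24898083-24905001) had 46.4, 13.3 and 46.3 CPM in SMG 1 to 3, against 8.44, 12.1 and 16.7 CPM in NG 1 to 3. SMG 1 and SMG 3 were high, while SMG 2 lay within the NG range, so the groups overlapped. The mean was 35.3 ± 19.1 CPM under SMG and 12.4 ± 4.16 CPM under NG (SD, n = 3 each). The log2 fold change was 1.51 (SE 0.51, edgeR adjusted p 0.221), and DESeq2 gave 1.5 with an adjusted p of 0.0381. Ndufaf4 passed in that 1 of 15 alternatives, and its adjusted p ran from 0.0381 to 0.592. Within the SMG group the highest library was 3.49 times the lowest for Ndufaf4 and 1.56 times for Ndufa4, and no more than 1.4 times for any other tested Nduf gene.

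Ndufaf6, an early factor related to phytoene synthases, had 4.30, 4.60 and 4.47 CPM in SMG 1 to 3, against 7.94, 5.40 and 5.94 CPM in NG 1 to 3. The groups did not overlap, and the log2 fold change was -0.53 (SE 0.20, edgeR adjusted p 0.27), or -0.35 without NG 1 (adjusted p 0.0921). The other factors did not pass in either fit. These were Ndufaf1, which in human cells acts on the membrane arm with Acad9, Ecsit and Tmem126b, and Ndufaf2, a relative of Ndufa12. They also included, with roles known from human cells, Ndufaf5, which modifies Ndufs7, its partner Ndufaf8, and the methyltransferase Ndufaf7. Their estimates ran from -0.41 for Ndufaf8 to 0.07 for Ndufaf1 with all libraries, and from -0.13 for Ndufaf2 to 0.31 for Ndufaf1 without NG 1. Ndufaf2 shares 4727 bases of its span with Smim15 on the other strand.

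**Figure D5:**
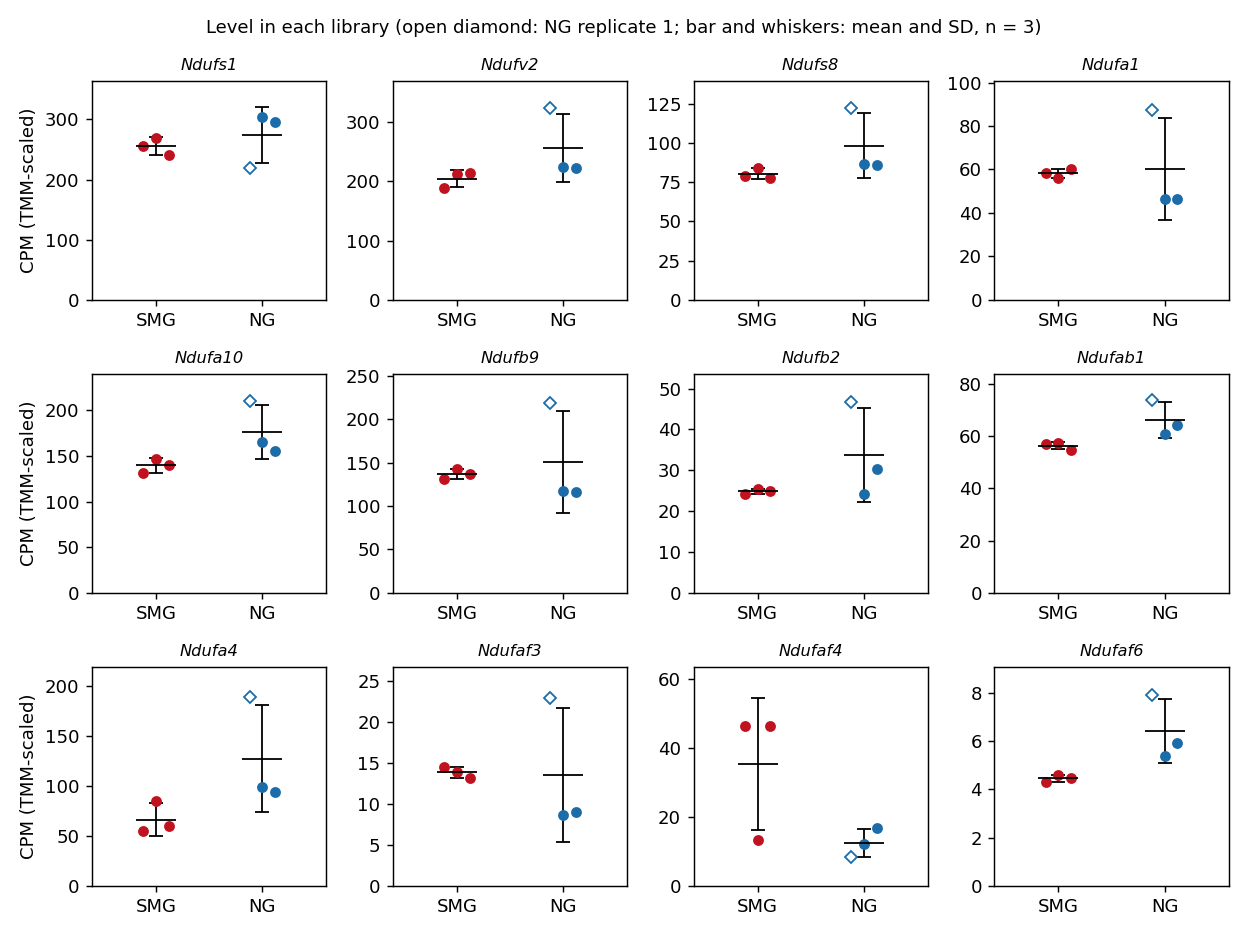
CPM in each library for 12 Nduf genes, SMG left of NG, with bars and whiskers for mean and SD (n = 3) and an open diamond for NG 1. For Ndufa1, Ndufb9 and Ndufaf3 the SMG libraries lie between NG 1 and the other NG libraries, and for Ndufaf4 SMG 2 lies with NG.

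The mitochondrially encoded subunits, which form the core of the membrane arm, did not pass with all libraries (edgeR, 0 of 7; none at an unadjusted p under 0.05, and 0 by DESeq2). Their lowest p was that of mt-Nd4 (log2 fold change 0.22, adjusted p 0.431). Without NG 1, 4 of 7 fell under SMG: mt-Nd1 by 0.29, mt-Nd2 by 0.22, mt-Nd3 by 0.36 and mt-Nd4l by 0.27, where 15.1% of all genes fell. The other 3 had estimates above 0 and did not pass: mt-Nd4 0.15 (adjusted p 0.106), mt-Nd5 0.14 (adjusted p 0.106) and mt-Nd6 0.05 (adjusted p 0.804). For mt-Nd1 the levels were 3670.2, 3571.8 and 3780.4 CPM in SMG 1 to 3, against 2479.4, 4468.4 and 4513.5 CPM in NG 1 to 3. SMG thus lay below NG 2 and NG 3 and above NG 1. For mt-Nd5 they were 4084.4, 3612.3 and 3818.8 CPM in SMG 1 to 3, against 1669.3, 3426.3 and 3554.1 CPM in NG 1 to 3. There SMG lay above every NG library.

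Complex I also depends on assembly factors without an Nduf name, of which 0 of 11 passed with all libraries, the lowest p being that of Sfxn4 (-0.95, edgeR adjusted p 0.345). Sfxn4 was low, at 0.706, 0.76 and 1.63 CPM in SMG 1 to 3, against 2.48, 2.11 and 1.42 CPM in NG 1 to 3, and the groups overlapped. Without NG 1, Lyrm2 rose by 0.68 and Tmem126b, a membrane-arm factor, by 0.28, while Acad9 fell by 0.21, so that 3 of 11 passed, against 30.8% of all genes. Of 14 genes of iron-sulfur cluster assembly, 0 passed with all libraries by edgeR. At an unadjusted p under 0.05 in edgeR 3 were lower, against 7.48% of all genes, and DESeq2 called 1, against 8.48% of all genes. Without NG 1, 4 fell, among them Lyrm4 by 0.47, Hspa9 by 0.36 and Fdxr by 0.31, against 15.1% of all genes that fell. In that fit 7 of 13 genes of mitochondrial import and quality control fell, against 15.1% of all genes, and 0 rose, against 15.7%. Among them were the prohibitins Phb2 (by 0.37) and Phb (by 0.31) and the processing peptidase subunit Pmpca (by 0.25). With all libraries 0 of the 13 passed by edgeR, and 3 were lower at an unadjusted p under 0.05, against 7.48% of all genes. DESeq2 called 1, against 8.48% of all genes. With the trend with listed gene length removed from all libraries, Phb and Phb2 passed (edgeR adjusted p 0.0388 and 0.0399), among 707 genes in all. With the mRNA length trend removed, 1 of the 13 passed, against 5.19% of all genes.

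Regulators of respiratory genes gave 0 of 12 with all libraries by edgeR, and 0 by DESeq2. At an unadjusted p under 0.05 in edgeR 2 were lower, against 7.48% of all genes. Without NG 1 the coactivator gene Ppargc1a rose by 0.33, and Hcfc1 fell by 0.55, Gabpb1 by 0.38, Pprc1 by 0.36 and Gabpa by 0.20, which makes 5 of 12, against 30.8% of all genes. Of 40 genes of complexes II to V, 1 fell with all libraries by edgeR and 2 by DESeq2. Of all genes, 1.52% and 8.48% were called by these tests in either direction. The gene called by edgeR was Cox7a2l, which in mouse links complexes III and IV. Cox7a2l had 25, 20.0 and 25.9 CPM in SMG 1 to 3, against 215.9, 105.6 and 105.7 CPM in NG 1 to 3, with a log2 fold change of -2.59 (SE 0.33, edgeR adjusted p 0.022). It passed without NG 1 as well, and 0 of the genes on these lists passed when SMG 1, SMG 2, SMG 3, NG 2 or NG 3 was left out. The median over the 40 was -0.21, with all 40 estimates below 0, and 0.04 without NG 1, when 4 rose, against 15.7% of all genes, and 5 fell, against 15.1%. The Nduf medians were -0.25 and 0.08.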

How the data were processed

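Per the labels' protocols, RNA was extracted with Trizol and sequenced as 6 mRNA libraries, and the submitters' processing notes name fastp (2.0) and HISAT2 (2.1.0). The authors deposited whole-number read counts per gene, not normalized as far as the values show. The counting tool, strand setting, build and annotation are not given in the sources used here. Start and end matched GENCODE M21 (GRCm38) for 97.1% of genes found in both, and for 38 of the 46 Nduf genes. One line without a gene was left out. Nothing says that libraries came from separate cultures, so p-values measure the spread between these libraries, which may be technical.

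Counts were tested in R 4.3.3 with edgeR 4.0.16 (filterByExpr, TMM, quasi-likelihood test, two-sided, Benjamini-Hochberg over all 14509 tested genes, threshold 0.05). Each SE was taken as fold change over the square root of the F statistic. CPM are TMM-scaled, except for shares and marker lists. Alternatives were DESeq2 1.42.0, voom of limma 3.58.1, DESeq2 size factors or library size in place of TMM, no filter, a replicate block, each library left out, and offsets that remove a loess trend (span 0.3) with listed gene length. The same with the length of the GENCODE principal mRNA, or the listed length where a gene had none, was added after the data were seen. DESeq2 gave an adjusted p for 14498 genes. The code was tested on simulated data.

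The Nduf genes and the other lists were chosen with earlier results of these data known. Values per library are given for Ndufa1, Ndufb9, Ndufs1, Ndufab1, Ndufa4 and Ndufa4l2, for genes called with all libraries or without NG 1, and for the lowest p of each role. Of other lists, genes past the threshold and the lowest p could be named. Ndufaf6, Ndufv1 and the rows outside the family with a complex I match or overlap were chosen after their values were seen. Single values of 1 Nduf gene and of 1 gene of the other lists are not reported here, though counts include them, and the figures show the other 44 tested Nduf genes or some of these.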

Additional observations from a re-analysis of the deposited data

How the results depend on the processing

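The median fold change of the Nduf genes (-0.25) kept its sign in every alternative with all 6 libraries and when any library but NG 1 was left out. Its size did not hold: with all 6 libraries it was -0.08 with the listed length trend removed and -0.03 with the mRNA length trend removed. Over the libraries left out in turn it ran from -0.38 to 0.08, the upper end being without NG 1. The number of Nduf genes called was 0, and 1 with DESeq2, 0 to 4 with a library left out, and 6 with the mRNA length trend removed and NG 1 out. The number of all genes called, 221, was 125 without a filter, 1230 with DESeq2, 707 and 753 with the listed or mRNA length trend removed, and 4527 with the mRNA trend removed and NG 1 out. With a library left out it ran from 3 to 4559. Of the genes on the other pathway lists 1 was called, against 4 with DESeq2, 3 and 2 with the length trends removed, 35 with the mRNA trend removed and NG 1 out, and 0 to 32 with a library left out. The estimate of Ndufa1 (-0.04) turned to 0.02 with voom, 0.02 with the replicate block, 0.27 with either length trend removed and 0.33 with NG 1 also out, and ran from -0.20 to 0.33 with a library left out. That of Ndufb9 (-0.14) turned to 0.13 and 0.12 with the length trends removed and 0.21 with NG 1 also out, and ran from -0.30 to 0.23. That of Ndufaf3 (0.03) ran from -0.21 to 0.66. The cause of these changes was not tested.

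Replicate numbers recur in both groups, but same-numbered libraries deviated from their group means with correlations of -0.0733, 0.0249 and -0.0898, so the numbers were not taken as pairs. With the replicate block edgeR called 0 genes (1534 at an unadjusted p under 0.05), 0 Nduf genes and 0 on the other pathway lists.

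Library totals were alike, so depth limits mainly the low Nduf genes such as Ndufaf6 and Ndufa4l2. With 3 libraries a group, 1 of them apart, small changes could not be told from the spread.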

Other observations

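Besides the Nduf genes, 84 rows of the table carry a match to a complex I protein in its annotation columns. Of these, 80 are listed as pseudogenes, 62 had no count, and 7 had a mean over 10 counts. Gm15920, with a match to NDUFA12, had 65.7, 62.4 and 71.1 CPM in SMG 1 to 3, against 126.8, 82.8 and 76.3 CPM in NG 1 to 3. Ndufa12 itself had 53.4, 70.1 and 50.2 CPM in SMG 1 to 3, against 83.3, 57.6 and 54.7 CPM in NG 1 to 3. How reads that match both were counted is not given in the sources used here, so the values of Ndufa12 are uncertain.

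No Nduf gene named Ndufb1 was among the 46. AC121965.1, listed as a long non-coding RNA with a match to NDUFB1, had 50.1, 47.2 and 58.7 CPM in SMG 1 to 3, against 95.5, 50.0 and 46.3 CPM in NG 1 to 3. NG 1 was its highest library too.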
